A study of Mus musculus with 16 samples.

Results

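The 42 genes described here encode the proteins that join integrins to actin filaments and the proteins that build, crosslink, sever and contract those filaments. They were chosen by gene symbol from a list of focal adhesion and cytoskeleton genes, and all 42 were found among the 54532 genes of the deposited tables. Of these, 40 had enough counts to be among the 15469 genes tested, while Ilk and Parva did not.

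Integrins bind matrix proteins such as fibronectin outside the cell and carry no enzyme of their own. Inside the cell, talin and kindlin open the integrin, adaptors such as vinculin, α-actinin, filamin and tensin tie it to actin, and the kinases FAK and PYK2 phosphorylate scaffolds such as paxillin. Macrophages adhere mainly through podosomes, small actin cores ringed by these same proteins. They use several forms made chiefly by blood cells, among them kindlin-3, parvin-γ, WASP, L-plastin and RAC2. They also use PYK2, which is abundant in blood cells.

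The cells were macrophages grown with CSF-1 from tibial marrow of wild-type C57BL/6 mice aged 2 to 3 months. For every library the labels give CSF-1 at 12 ng/ml for 24 h, then at 120 ng/ml for 48 h, and 15% serum. After 1 passage they stood either on ordinary dishes or on dishes coated with fibronectin at 10 µg/ml, and for the last 24 h they received 10 µg/ml of either IgG or a neutralizing antibody against the integrin subunit αV, ITGAV. All 4 groups (uncoated_IgG, uncoated_antiITGAV, fibronectin_IgG and fibronectin_antiITGAV) had 4 libraries, and the series asks what integrin αV does in these cells. The labels do not say whether replicates came from separate mice or cultures, so p-values measure the spread between these libraries, which may be technical.

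Total counts ran from 27995035 to 43413650 per library, so a count of 0 allows up to 3 counts, which is 0.0688 to 0.106 CPM (counts scaled to the TMM-adjusted library total) and covers counting error only. The 12 macrophage markers had a median of 655 CPM, with Lyz2 at 23421 CPM. The library fibronectin_antiITGAV 3 stood apart: its share of mitochondrial transcripts was 3.67%, where the other 15 had 1.298% to 1.60%, and its deviations from the mean of all libraries followed transcript GC content (Spearman correlation -0.70 across genes, against -0.30 to 0.55). Summed markers of several other cell types differed with the coating, and their part in the results was not tested. The 10 fibroblast markers summed to 11.2 to 15.9 CPM in uncoated libraries and 6.10 to 9.69 CPM on fibronectin (Lum was at 0 everywhere), the 7 mast cell and basophil markers to 19.5 to 33.7 and 9.19 to 18.5 CPM, and the 6 B lymphocyte markers to 60.8 to 79.6 and 29.7 to 44.9 CPM. In each of these 3 lists 3 of 6 tested genes fell on fibronectin, averaged over the antibodies, by the edgeR test described below, against 5.26% of all genes. The 7 platelet markers, mostly Pf4, summed to 556 to 711 and 401 to 514 CPM, the 13 neutrophil markers to 409 to 554 and 301 to 526 CPM, and the 6 dendritic markers, mostly Itgax, to 16.8 to 25.4 and 35.4 to 51.6 CPM. In the same comparison 6 of 13 neutrophil, 1 of 5 platelet and 2 of 12 macrophage markers fell and 1 of 6 dendritic markers rose (6.58% of all genes rose). Of 5 tested endothelial markers 2 rose and 1 fell there, and of 6 monocyte markers 1 rose and 1 fell. Anti-ITGAV against IgG, averaged over both coatings, had 4 of 13 neutrophil markers lower (Ltf, Lcn2, S100a9 and Camp). There 1 of 6 mast cell and basophil markers (Prss34) was lower too, against 0.0323% of all genes. On fibronectin 2 neutrophil markers (Ltf and Lcn2) were lower with it, against 0.0129% of all genes. Their part in the antibody results was not tested. The 7 contractile cell markers summed to 8.86 to 13.7 CPM over all libraries, most of it Acta2. In such bulk samples fewer cells of a type and less RNA per cell cannot be told apart.

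As a set these genes were abundant. The 40 tested genes had a median of 326 CPM against 14.8 CPM for all genes tested, and the 42 together took 2.19% to 2.93% of a library's counts. By FPKM, the authors' count per gene length and depth, 33 of the 42 had a mean of at least 10. Actb, cytoplasmic β-actin, stood at 2005 FPKM over the 16 libraries and made up 27.9% of their summed FPKM. Next came Cfl1, the filament-severing cofilin-1, at 761 FPKM, then Actg1, γ-actin, at 469 FPKM and the Arp2/3 subunit Arpc2 at 460 FPKM, a pair whose ranges overlapped (370 to 565 and 403 to 647 FPKM). Among the adhesion proteins Flna, the actin crosslinker filamin A, led with 197 FPKM (155 to 256), followed by Fermt3, kindlin-3, at 154 FPKM (63.8 to 180) and Tln1, talin-1, at 152 FPKM (83.6 to 194).

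**Figure D1:**
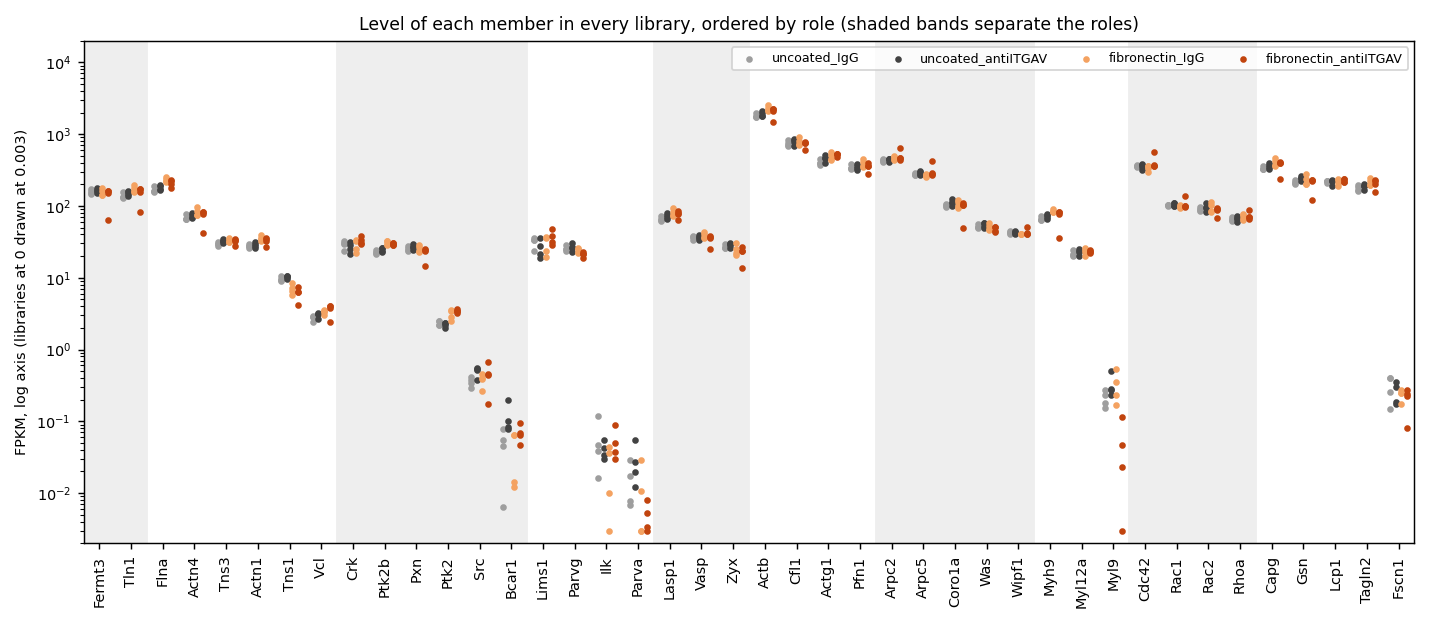
FPKM of each of the 42 genes (log axis) in every library, in 4 columns of points per gene for the 4 groups, with shaded bands separating the roles and values of 0 drawn at 0.003. Actb lies highest, at 1470 to 2527 FPKM, and Src, Fscn1, Myl9, Bcar1, Ilk and Parva lie below 1 FPKM on average.

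Where genes of a kind come in several forms, 1 form usually led. Ptk2b, which encodes PYK2, stood 9.67 ± 1.13-fold (SD, n = 4) above Ptk2, which encodes FAK, in FPKM in uncoated_IgG. Actb stood 4.45 ± 0.14-fold above Actg1 and Actn4 2.49 ± 0.12-fold above Actn1 in the same group, while Rac1 and Rac2 were close (1.14 ± 0.0455-fold). Parvg, parvin-γ, had 24.4 FPKM, and Parva, the widely expressed α form, 0.0144 FPKM with 3 libraries at 0. The scaffold Bcar1 (p130Cas) and the kinase Src averaged 0.0674 and 0.416 FPKM, and Fscn1, the bundler of filopodia, 0.248 FPKM.

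Some levels carry an uncertainty from the gene models. The library kit, per the labels, does not mark strand, so reads of a gene and of an overlapping gene on the opposite strand cannot be told apart. Ilk (chr7:105736592-105742925, plus strand, GRCm38), the integrin-linked kinase, shares 89.7% of its exonic bases with opposite-strand genes, mainly Taf10, which had 53.1 CPM. Ilk itself was listed with 0 to 11 counts per library, at 0.326, 0.131, 0.106 and 0.0459 CPM in uncoated_IgG, 0.101, 0, 0.0277 and 0.122 in fibronectin_IgG, 0.119, 0.0943, 0.154 and 0.0822 in uncoated_antiITGAV and 0.083, 0.136, 0.242 and 0.104 in fibronectin_antiITGAV, so its true level is unknown and no direction is drawn from it. Rac1 shares 51.4% of its exonic bases with Daglb (87.1 CPM, against 471 CPM for Rac1) and Vcl 25.5% with Ap3m1 (118 CPM, against 26.3 CPM for Vcl). Actb and Actg1, and Myl12a and Myl12b, are pairs of closely related genes, and the sources used here do not say how any reads matching both were shared.

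Promoter sequence was compared for 35 of the 42 genes, those with an entry in the RefSeq table (250 bases before to 50 after the start, GRCm38.p6). Parva, Actb, Ptk2, Rac1, Ptk2b, Pxn and Rac2 had no entry and were not searched. The CArG box, the site of serum response factor, a regulator of actin genes, was searched on both strands and lay in 3 of the 35 genes (8.57%), against 1.81% of all 27025 genes in the table. The holders were Actg1, Vcl and Myl9, whose windows follow 5′ to 3′ on the gene's strand with the box in capitals, since all 3 recur among the values below; the Actg1 window is chr11:120348526-120348635 (minus strand, box 90 bases before the start), the Vcl window chr14:20929148-20929230 (plus, 227 bases) and the Myl9 window chr2:156775253-156775362 (plus, 161 bases).
Actg1: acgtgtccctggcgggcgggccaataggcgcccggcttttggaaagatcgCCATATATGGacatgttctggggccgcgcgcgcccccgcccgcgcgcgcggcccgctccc
Vcl: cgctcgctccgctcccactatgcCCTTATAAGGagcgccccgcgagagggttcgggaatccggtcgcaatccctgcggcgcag
Myl9: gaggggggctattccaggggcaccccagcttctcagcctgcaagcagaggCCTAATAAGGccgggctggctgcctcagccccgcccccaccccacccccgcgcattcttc
The core of the TEAD motif, GGAATG, lay in 8 of the 35 genes (22.9%, against 16.6% of all), among them Flna, Actn4 and Vcl. The AP-1 motif, TGACTCA or TGAGTCA, lay in 2 (5.71%, against 5.95%), Zyx and Myl12a. A match describes the letters only. Distances of the boxes are counted from the RefSeq start. For Actg1 and Myl9 that start differs from the gene start in the coordinates given below.

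Fibronectin against uncoated dishes was compared under each antibody and as the average of both. Log2 changes are given ± SE with the adjusted p of the same test. Under IgG, 3 genes passed edgeR's quasi-likelihood test with a Benjamini-Hochberg adjusted p under 0.05, all of them higher on fibronectin (Ptk2b, Flna and Actn1). Over all genes tested 3.79% passed, and 2.37% passed with a higher level. The median log2 change of the 40 genes was 0.12, against 0.00 over all genes tested, and 28 of the 40 changes were positive; with an offset for transcript GC content in each library the median was 0.06, with 28 positive as well. In 11 genes every fibronectin_IgG library lay above every uncoated_IgG library (Tln1, Vcl, Actn1, Ptk2, Ptk2b, Tns3, Actb, Flna, Myh9, Tagln2 and Lasp1), against 7.89% of all genes, and in 1, Tns1, every library lay below, against 5.26% of all genes. Without the library fibronectin_antiITGAV 3, which is no part of this comparison but enters the shared estimate of spread, 13 genes passed (12 higher, and Tns1 lower), against 8.4% of all genes (5.5% higher, 2.91% lower). With the GC offset 13 passed as well (11 higher, 2 lower), against 11.1% of all genes (6.04% higher, 5.02% lower), and 17 with both changes, against 14.8%.

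Under anti-ITGAV, 3 genes passed, Ptk2 higher and Tns1 and Myl9 lower, against 5.66% of all genes tested (2.84% higher, 2.83% lower), and the median over the 40 was -0.01. Groups did not overlap in 2 genes that were higher (6.55% of all genes) and 2 that were lower (7.53% of all genes). Without fibronectin_antiITGAV 3 the same 3 and Flna, Ptk2b and Vcl passed, against 6.17% of all genes, with the GC offset 11 passed, against 12.6%, and with both changes 17, also against 12.6%. Averaged over both antibodies, 6 genes passed: Ptk2, Ptk2b, Flna, Actn1 and Actg1 rose and Tns1 fell, against 11.8% of all genes tested (6.58% higher, 5.26% lower). In Ptk2 and Ptk2b all 8 fibronectin libraries lay above all 8 uncoated ones (2.01% of all genes), and in Tns1 all lay below (1.81%). Without fibronectin_antiITGAV 3, 15 genes passed on average, against 15.7% of all genes, with the GC offset 18 did, against 21.9%, and with both changes 21, against 23.4%. The 12 genes that the GC offset added on average were Actb, Actn4, Capg, Lasp1, Myh9, Pfn1, Tagln2, Tln1, Tns3 and Vcl, which were higher, and Parvg and Zyx, which were lower. DESeq2 called 5 of the 40 under IgG, 4 under anti-ITGAV and 7 on average, against 6.85%, 10.3% and 15.4% of all genes. The averaged comparison uses the same libraries as the other 2, so it is no further evidence for them.

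**Figure D2:**
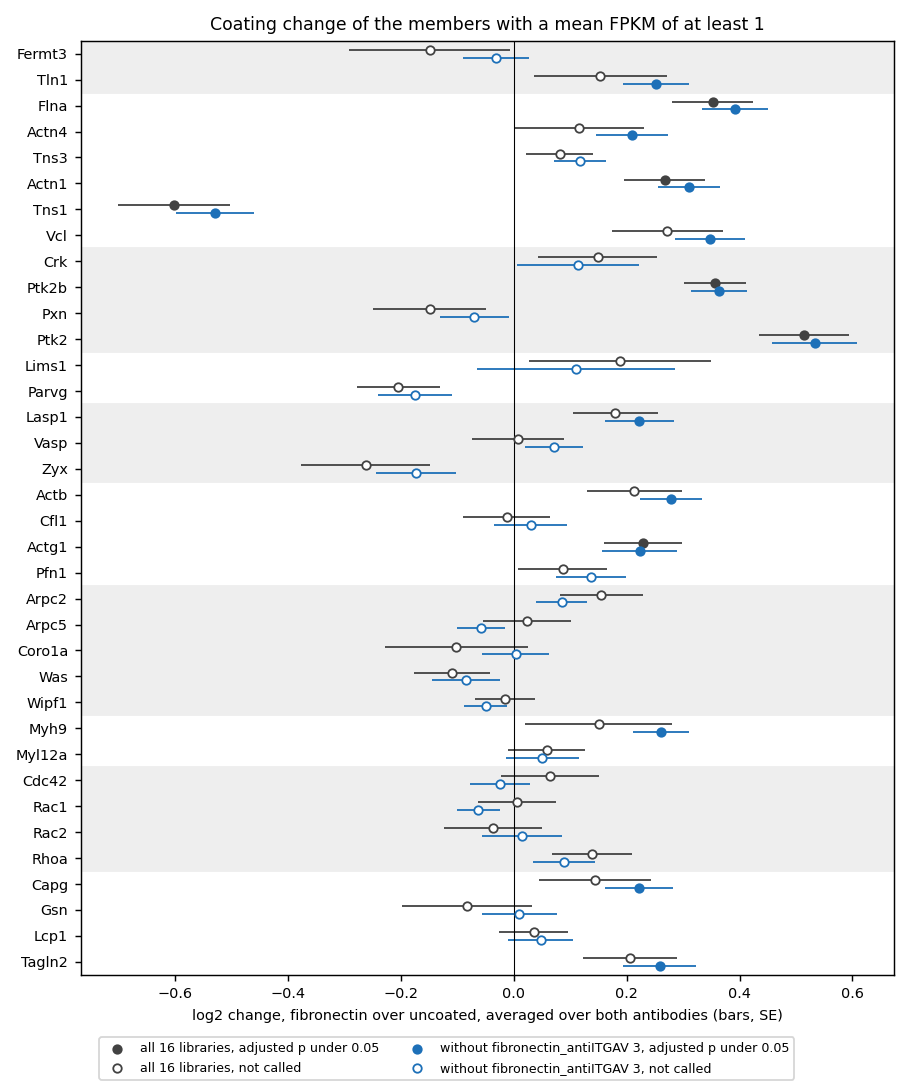
Log2 change on fibronectin averaged over both antibodies, with SE bars, for the 36 genes with a mean of at least 1 FPKM, from all 16 libraries (grey) and without fibronectin_antiITGAV 3 (blue); filled points passed at an adjusted p under 0.05 and bands separate the roles. Tns1 lies farthest to the left, at -0.60, and Ptk2 farthest to the right, at 0.51.

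Both adhesion kinases rose on fibronectin when averaged over the antibodies. Ptk2 (ENSMUSG00000022607, chr15:73205102-73423280), the focal adhesion kinase FAK, had 25.8, 30.02, 30.01 and 26.6 CPM in uncoated_IgG, 41.9, 30.1, 33.7 and 42.8 in fibronectin_IgG, 26.6, 27.6, 28.4 and 23.99 in uncoated_antiITGAV and 44.1, 41.00, 38.03 and 41.6 in fibronectin_antiITGAV. All fibronectin libraries lay above all uncoated ones, with the lowest of them, fibronectin_IgG 2, barely so. On the log2 scale it differed by 0.40 ± 0.11 (adjusted p = 0.0584) under IgG, rose by 0.63 ± 0.11 (adjusted p = 0.00381) under anti-ITGAV and rose by 0.51 ± 0.08 (adjusted p = 0.000386) on average, which is 1.43-fold. Ptk2b (ENSMUSG00000059456, chr14:66153257-66281052), the related kinase PYK2 that is abundant in blood cells, had 163, 161, 168 and 185 CPM in uncoated_IgG, 223, 243, 243 and 216 in fibronectin_IgG, 196, 175, 195 and 172 in uncoated_antiITGAV and 215, 225, 215 and 231 in fibronectin_antiITGAV. Here too the 8 fibronectin libraries were all above the 8 uncoated ones, and fibronectin_antiITGAV 3 sat among its group. Ptk2b rose by 0.45 ± 0.08 (adjusted p = 0.00312) under IgG, differed by 0.26 ± 0.08 (adjusted p = 0.0574) under anti-ITGAV and rose by 0.36 ± 0.06 (adjusted p = 0.000371) on average, which is 1.28-fold. Both genes passed on average in all 12 other settings and with each of the 16 libraries left out in turn. The ratio of Ptk2b to Ptk2 in FPKM was 10.2 ± 2.35 in fibronectin_IgG and 8.61 ± 0.564 in fibronectin_antiITGAV (SD, n = 4 each).

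Of the scaffolds these kinases act on none passed with all libraries. Pxn, which encodes paxillin, had 213, 202, 194 and 234 CPM in uncoated_IgG, 197, 239, 224 and 190.0 in fibronectin_IgG, 248, 219.9, 226 and 201 in uncoated_antiITGAV and 197, 205, 118 and 202 in fibronectin_antiITGAV. Its groups overlapped apart from the low value of fibronectin_antiITGAV 3, and its log2 change under IgG was 0.01 ± 0.14 (adjusted p = 0.989), with a 95% interval of -0.29 to 0.31. On average it was -0.15 ± 0.10 (adjusted p = 0.404) with all libraries and -0.07 ± 0.06 (adjusted p = 0.535) without that library. With that library left out and the GC offset, Pxn passed edgeR's test on average. The size of that change is not given here, and the averaged changes above, -0.15 and -0.07, were negative. Of the 6 kinases and scaffolds of this role, 4 had an unadjusted p under 0.05 under anti-ITGAV. The share of all genes at that unadjusted threshold is not given. By adjusted p 1 of the 6, Ptk2, passed there, against 5.66% of all genes, and the median log2 change of the role was 0.04. Crk, an adaptor that links paxillin to Rac activation, had 0.15 ± 0.11 (adjusted p = 0.433) on average, and Src and Bcar1 were too low to judge, at 28 to 107 and 1 to 29 counts per library.

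**Figure D3:**
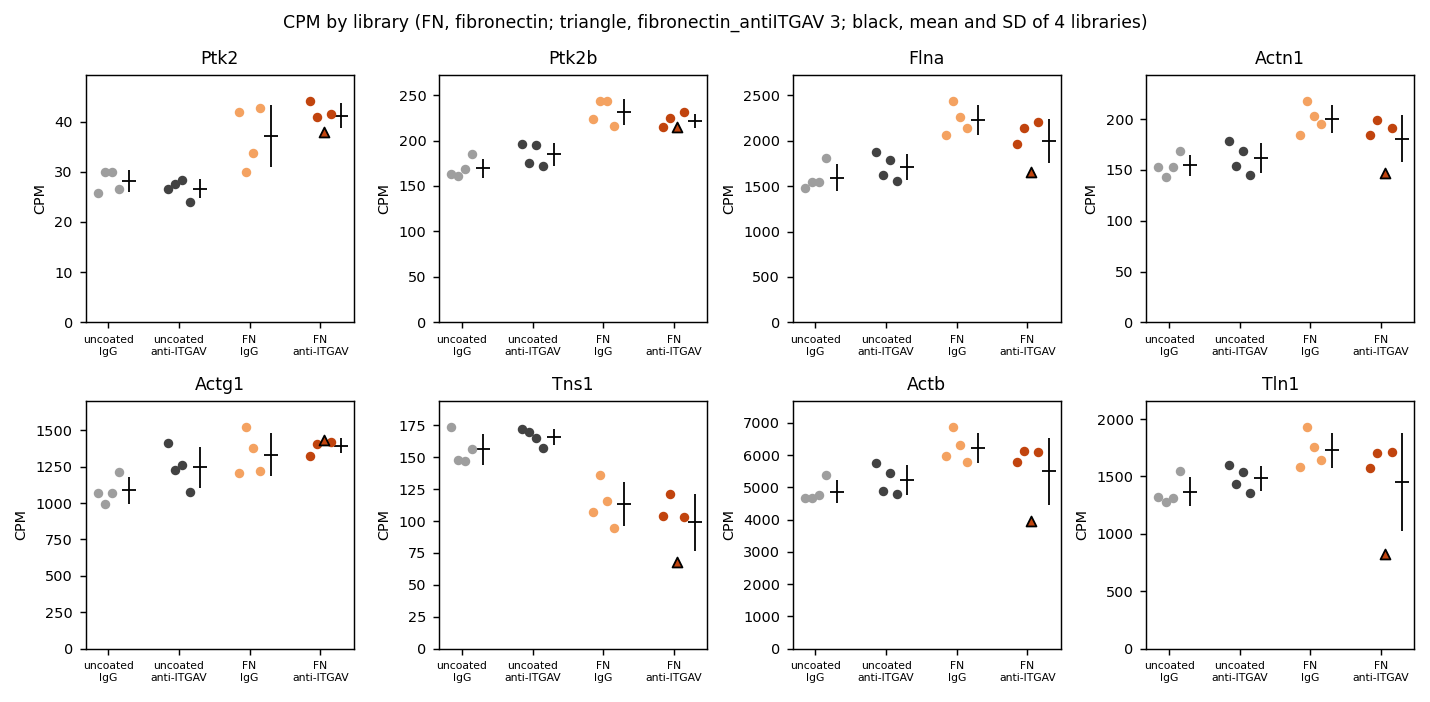
CPM of 8 genes in each library by group, with black marks for the mean and SD of 4 libraries and a triangle for fibronectin_antiITGAV 3. For Ptk2 and Ptk2b every fibronectin library lies above every uncoated one and for Tns1 below, whereas the triangle lies far below its group for Tln1 (822 CPM) and Actb (3950 CPM).

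Among the actin-linking adaptors, 2 of 6 rose on average and 1 fell, against 6.58% and 5.26% of all genes tested. Without fibronectin_antiITGAV 3, 4 rose and 1 fell, against 8.91% and 6.75% of all genes. With the GC offset 5 rose and 1 fell, against 11.7% and 10.2%. Flna (ENSMUSG00000031328, chrX:74223461-74249820), which crosslinks filaments into networks and binds integrin tails, had 1475, 1545, 1541 and 1810.3 CPM in uncoated_IgG, 2068, 2435, 2266 and 2145 in fibronectin_IgG, 1873, 1627, 1788 and 1559 in uncoated_antiITGAV and 1967, 2141, 1660.0 and 2207 in fibronectin_antiITGAV. All fibronectin_IgG libraries exceeded all uncoated ones, while fibronectin_antiITGAV 3 fell within the uncoated range. Flna rose by 0.48 ± 0.10 (adjusted p = 0.011) under IgG (1.40-fold) and by 0.35 ± 0.07 (adjusted p = 0.00307) on average, and it differed by 0.22 ± 0.10 (adjusted p = 0.21) under anti-ITGAV. The IgG result lost its call without uncoated_IgG 1, 2 or 3 (adjusted p = 0.0527 to 0.0585). Actn1 (ENSMUSG00000015143, chr12:80167547-80260371), α-actinin-1, which holds antiparallel filaments together, had 153, 143, 153 and 168 CPM in uncoated_IgG, 184, 218, 203 and 195 in fibronectin_IgG, 179, 154, 169 and 145 in uncoated_antiITGAV and 184, 199.6, 147 and 192 in fibronectin_antiITGAV. Its fibronectin_IgG libraries lay above all uncoated ones, and 3 of 4 fibronectin_antiITGAV libraries did. The change was 0.37 ± 0.10 (adjusted p = 0.0471) under IgG, 0.16 ± 0.10 (adjusted p = 0.359) under anti-ITGAV and 0.27 ± 0.07 (adjusted p = 0.0197) on average. Its IgG call held in 9 of 13 other settings and in 4 of the 16 fits that left out a library, namely without uncoated_IgG 4, uncoated_antiITGAV 1, uncoated_antiITGAV 4 or fibronectin_antiITGAV 3; in the other 12 the adjusted p was 0.0594 to 0.194. On average it was lost without uncoated_IgG 2, fibronectin_antiITGAV 2 or fibronectin_antiITGAV 4 (adjusted p = 0.0534 to 0.0602).

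Tns1 (ENSMUSG00000055322, chr1:73910231-74124449), tensin-1, which caps filaments and binds integrin tails in mature, fibrillar adhesions, went the other way. It had 173, 148, 147 and 157 CPM in uncoated_IgG, 107, 136, 116 and 94.9 in fibronectin_IgG, 172, 169.7, 165 and 157 in uncoated_antiITGAV and 104, 121, 67.9 and 103 in fibronectin_antiITGAV. All 8 fibronectin libraries lay below all 8 uncoated ones, with fibronectin_antiITGAV 3 the lowest. Its log2 change was -0.46 ± 0.14 (adjusted p = 0.0829) under IgG, and it fell under anti-ITGAV (-0.74 ± 0.14, adjusted p = 0.00541) and on average (-0.60 ± 0.10, adjusted p = 0.000643), a level 0.659 times that on uncoated dishes. Tns1 passed under anti-ITGAV and on average in all other settings and with each library left out. Its relative Tns3, also a tensin, had a log2 change of 0.08 ± 0.06 (adjusted p = 0.458) on average, and the FPKM ratio of Tns3 to Tns1 was 3.06 ± 0.202 in uncoated_IgG, 4.83 ± 0.516 in fibronectin_IgG, 3.18 ± 0.0995 in uncoated_antiITGAV and 5.36 ± 0.778 in fibronectin_antiITGAV (SD, n = 4 each). The summed fibroblast markers were lower on fibronectin as well, as given above, and their part in the Tns1 result was not tested.

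Vcl, vinculin, which reinforces the link between talin and actin and whose promoter window is shown above, had 23.1, 19.8, 23.2 and 24.2 CPM in uncoated_IgG, 28.9, 27.9, 29.7 and 25.6 in fibronectin_IgG, 25.9, 25.9, 26.7 and 21.99 in uncoated_antiITGAV and 33.9, 33.3, 19.8 and 30.9 in fibronectin_antiITGAV. Its fibronectin_IgG libraries lay above all uncoated_IgG ones, and fibronectin_antiITGAV 3 lay as low as the uncoated libraries. Its change was 0.27 ± 0.10 (adjusted p = 0.087) on average and missed the threshold, whereas without that library it was 0.35 ± 0.06 (adjusted p = 0.00078) on average, 0.31 ± 0.09 (adjusted p = 0.0285) under IgG and 0.38 ± 0.09 (adjusted p = 0.0176) under anti-ITGAV. Actn4, the more abundant α-actinin, differed by 0.12 ± 0.12 (adjusted p = 0.596) on average and by 0.21 ± 0.06 (adjusted p = 0.0315) without it.

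Neither of the 2 integrin activators passed with all libraries and no GC offset, and 0 had an unadjusted p under 0.05 by edgeR in a coating comparison and 0 were called by DESeq2. Tln1, whose protein binds the β tail and opens the integrin, had 1325, 1280.0, 1309 and 1551 CPM in uncoated_IgG, 1585, 1927, 1754 and 1645 in fibronectin_IgG, 1604, 1439, 1541 and 1359 in uncoated_antiITGAV and 1576, 1701, 822 and 1717 in fibronectin_antiITGAV. All fibronectin_IgG libraries lay above all uncoated_IgG ones, but fibronectin_antiITGAV 3 lay below every other library. Its log2 change under IgG was 0.34 ± 0.17 (adjusted p = 0.349) with all libraries and 0.34 ± 0.08 (adjusted p = 0.0113) without fibronectin_antiITGAV 3. On average it was 0.15 ± 0.12 (adjusted p = 0.473), and 0.25 ± 0.06 (adjusted p = 0.00559) without it. With all libraries and the GC offset, Tln1 passed under IgG (0.27 ± 0.06, adjusted p = 0.00393) and on average (0.20 ± 0.04, adjusted p = 0.000933). Fermt3, kindlin-3, talin's partner in blood cells, had 419, 395, 388 and 453 CPM in uncoated_IgG, 376, 472, 429 and 379.7 in fibronectin_IgG, 476, 426, 439 and 395 in uncoated_antiITGAV and 404, 424, 165 and 418 in fibronectin_antiITGAV. Its groups overlapped, and the low library is again fibronectin_antiITGAV 3. The change under IgG was 0.00 ± 0.20 (adjusted p = 0.999), with a 95% interval of -0.42 to 0.42, and without that library the averaged change was -0.03 ± 0.06 (adjusted p = 0.815).

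In the complex of ILK, PINCH and parvin, which joins integrin tails to actin, neither of the 2 tested genes passed in a coating comparison by edgeR without a GC offset, while both had an unadjusted p under 0.05 under anti-ITGAV and DESeq2 called 1, Parvg. Lims1, PINCH-1, had 165, 168, 176 and 116 CPM in uncoated_IgG, 179, 97.4, 119 and 184 in fibronectin_IgG, 93.2, 136, 107 and 177 in uncoated_antiITGAV and 189, 139.9, 234 and 155 in fibronectin_antiITGAV. Its groups overlapped, with a wide spread inside each, and the change was -0.11 ± 0.23 (adjusted p = 0.903) under IgG and 0.48 ± 0.23 (adjusted p = 0.224) under anti-ITGAV. Parvg had -0.20 ± 0.07 (adjusted p = 0.0856) on average, and with the GC offset it passed there (-0.17 ± 0.04, adjusted p = 0.00619) and under anti-ITGAV (-0.20 ± 0.06, adjusted p = 0.0402). Among the proteins that zyxin recruits or accompanies, Lasp1, a LIM and SH3 protein of podosomes, had 427, 412, 409.9 and 484 CPM in uncoated_IgG, 486, 618, 538 and 503 in fibronectin_IgG, 533, 459, 497 and 435 in uncoated_antiITGAV and 513, 552, 408 and 522 in fibronectin_antiITGAV. The fibronectin_IgG libraries lay above all uncoated_IgG ones, and 2 of them lay below the highest uncoated_antiITGAV library. Its change was 0.18 ± 0.07 (adjusted p = 0.144) on average and 0.22 ± 0.06 (adjusted p = 0.0188) without fibronectin_antiITGAV 3. Zyx, zyxin, had -0.26 ± 0.11 (adjusted p = 0.167) and Vasp, which elongates filaments, 0.01 ± 0.08 (adjusted p = 0.973) on average, and with the GC offset Zyx passed (-0.22 ± 0.05, adjusted p = 0.00333).

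Of the actins and their turnover factors, Actg1 (ENSMUSG00000062825, chr11:120345690-120348542), whose CArG box is shown above, rose on average. It had 1069.9, 992, 1073 and 1215 CPM in uncoated_IgG, 1209, 1521, 1380.4 and 1222 in fibronectin_IgG, 1417, 1230.5, 1262 and 1074 in uncoated_antiITGAV and 1323, 1408, 1432 and 1421 in fibronectin_antiITGAV. The groups overlapped, since uncoated_antiITGAV 1 lay above 3 of the fibronectin_IgG libraries. The change was 0.29 ± 0.10 (adjusted p = 0.116) under IgG, 0.16 ± 0.10 (adjusted p = 0.331) under anti-ITGAV and 0.23 ± 0.07 (adjusted p = 0.038) on average, which is 1.17-fold. That call held in 8 of 12 other settings and with only 5 of 16 libraries left out: it was lost without any of uncoated_IgG 1, 2 and 3, uncoated_antiITGAV 2, 3 and 4, fibronectin_IgG 2 and 3, or fibronectin_antiITGAV 1, 2 and 4 (adjusted p = 0.0566 to 0.118). Actb had 4678, 4655, 4766 and 5382 CPM in uncoated_IgG, 5959, 6858, 6306 and 5792 in fibronectin_IgG, 5756, 4890.0, 5447 and 4808 in uncoated_antiITGAV and 5797, 6132, 3950.3 and 6105 in fibronectin_antiITGAV. Every fibronectin_IgG library lay above every uncoated one, and fibronectin_antiITGAV 3 was the lowest of all 16. Its change was 0.35 ± 0.12 (adjusted p = 0.125) under IgG and 0.21 ± 0.08 (adjusted p = 0.122) on average, and without that library 0.36 ± 0.08 (adjusted p = 0.00616) and 0.28 ± 0.06 (adjusted p = 0.00183). Cfl1 and Pfn1, profilin-1, which supplies actin monomers, had -0.01 ± 0.08 (adjusted p = 0.947) and 0.09 ± 0.08 (adjusted p = 0.555) on average.

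None of the 5 genes of branched actin assembly passed in a coating comparison by edgeR, with all libraries, without fibronectin_antiITGAV 3 or with the GC offset, and with both changes 1, Was, did on average. At an unadjusted p under 0.05 there was 1, under anti-ITGAV, and DESeq2 called 0. Arpc2, a core subunit of the Arp2/3 complex, had 850.0, 887, 871 and 941 CPM in uncoated_IgG, 931, 1016, 1003 and 915 in fibronectin_IgG, 938, 919, 947 and 827 in uncoated_antiITGAV and 901, 939.8, 1320.2 and 969.7 in fibronectin_antiITGAV. Apart from the high value of fibronectin_antiITGAV 3 its groups overlapped, and its change under IgG was 0.12 ± 0.10 (adjusted p = 0.675), with a 95% interval of -0.10 to 0.34. Arpc5, Was (WASP, which activates Arp2/3), its partner Wipf1 and the filament-binding Coro1a had averaged log2 changes with all libraries between -0.11 (Was) and 0.02 (Arpc5), all with an adjusted p of at least 0.358.

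Among the myosin II genes, Myh9, the heavy chain of non-muscle myosin IIA that pulls on filaments, differed by 0.34 ± 0.18 (adjusted p = 0.411) under IgG. Without fibronectin_antiITGAV 3, where it stood at 458 CPM against 1032 to 1085 CPM in the other 3 libraries of its group, the change was 0.34 ± 0.07 (adjusted p = 0.00346). Myl9 (ENSMUSG00000067818, chr2:156775420-156781658), a regulatory light chain typical of smooth muscle, was near the limit of detection with 0 to 21 counts per library and 147 in all. Its level was 0.178, 0.21, 0.318 and 0.275 CPM in uncoated_IgG, 0.202, 0.626, 0.277 and 0.427 in fibronectin_IgG, 0.596, 0.314, 0.333 and 0.274 in uncoated_antiITGAV and 0.0277, 0.0546, 0.135 and 0 in fibronectin_antiITGAV. The 4 fibronectin_antiITGAV libraries, with 1, 2, 5 and 0 counts, lay below the other 12. It fell under anti-ITGAV (-2.67 ± 0.63, adjusted p = 0.0195), with a 95% interval of -4.00 to -1.33, and had 0.64 ± 0.53 (adjusted p = 0.667) under IgG. The call was lost without uncoated_antiITGAV 1, fibronectin_antiITGAV 1 or fibronectin_antiITGAV 4 (adjusted p = 0.0503 to 0.0681), with the 8 libraries of the comparison alone (adjusted p = 0.086) and with limma without a filter (adjusted p = 0.068), while DESeq2 gave Myl9 no adjusted p. Myl12a, the light chain of non-muscle cells at 22.8 FPKM, had 0.06 ± 0.07 (adjusted p = 0.662) on average.

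Rac1, which drives lamellipodia, had 466, 459, 463 and 475 CPM in uncoated_IgG, 438, 448, 466 and 447 in fibronectin_IgG, 454, 489, 497 and 453 in uncoated_antiITGAV and 449.8, 450.4, 629 and 448 in fibronectin_antiITGAV. The 15 libraries other than fibronectin_antiITGAV 3 lay close together, and its averaged change was 0.01 ± 0.07 (adjusted p = 0.974), with a 95% interval of -0.14 to 0.15. Rac2, the form of blood cells, had 282, 268, 279 and 305 CPM in uncoated_IgG, 262, 359, 325 and 269 in fibronectin_IgG, 345, 293, 307 and 262 in uncoated_antiITGAV and 288, 296, 209.7 and 277 in fibronectin_antiITGAV and overlapped across all groups, with an averaged change of -0.04 ± 0.09 (adjusted p = 0.851). Rhoa, which drives contraction and stress fibres, had 463, 477, 497 and 535 CPM in uncoated_IgG, 529, 595, 566 and 486 in fibronectin_IgG, 530.1, 496, 551 and 455 in uncoated_antiITGAV and 507, 529.7, 670.3 and 524 in fibronectin_antiITGAV. Its averaged change was 0.14 ± 0.07 (adjusted p = 0.246), with a 95% interval of -0.01 to 0.29. Cdc42, which drives filopodia and activates WASP, had 1039, 1094, 1128 and 1106 CPM in uncoated_IgG, 1111, 902, 1032 and 1078 in fibronectin_IgG, 951, 1142, 1132 and 1045 in uncoated_antiITGAV and 1097, 1107, 1664 and 1076 in fibronectin_antiITGAV, again with groups that overlapped and 1 high library. Its averaged change was 0.06 ± 0.09 (adjusted p = 0.715).

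In the last role, proteins that bundle, cap or sever filaments, none of 5 genes passed by edgeR with all libraries and no GC offset, 1 had an unadjusted p under 0.05 under IgG and 1 on average, and DESeq2 called 0. Tagln2, Capg, Lcp1 (L-plastin) and Gsn (gelsolin) had averaged changes of 0.21 ± 0.08 (adjusted p = 0.128), 0.14 ± 0.10 (adjusted p = 0.414), 0.04 ± 0.06 (adjusted p = 0.786) and -0.08 ± 0.12 (adjusted p = 0.726). Without fibronectin_antiITGAV 3, Tagln2 (0.26 ± 0.06, adjusted p = 0.00989) and Capg (0.22 ± 0.06, adjusted p = 0.0174) passed, and with all libraries and the GC offset both passed under IgG, under anti-ITGAV and on average. Fscn1, with the largest change of this role under IgG but only 9 to 54 counts per library, had 1.22, 0.447, 0.777 and 1.24 CPM in uncoated_IgG, 0.539, 0.835, 0.749 and 0.762 in fibronectin_IgG, 1.10, 0.566, 0.538 and 0.905 in uncoated_antiITGAV and 0.83, 0.682, 0.242 and 0.728 in fibronectin_antiITGAV. Its groups overlapped, and the change was -0.35 ± 0.40 (adjusted p = 0.783) under IgG.

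In fibronectin_antiITGAV 3 the levels of these genes moved with transcript GC content. Relative to the mean of the other 3 libraries of its group, 29 of the 40 tested genes were lower and 11 higher, and 16 were at least 1.5-fold lower, among them Fermt3 (0.398 times), Myh9 (0.431), Coro1a (0.461) and Tln1 (0.494). Cdc42 (1.52 times), Arpc5 (1.48), Lims1 (1.45), Arpc2 (1.41) and Rac1 (1.40) were the abundant genes at least 1.3-fold higher. Across the 40 genes this ratio and GC content had a Spearman correlation of -0.77, a description across genes of 1 library, which are not independent. Ptk2b (0.962) and Ptk2 (0.901) were close to their group there. The 40 genes had a median transcript GC content of 54.1%, against 49.2% for all genes tested.

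**Figure D4:**
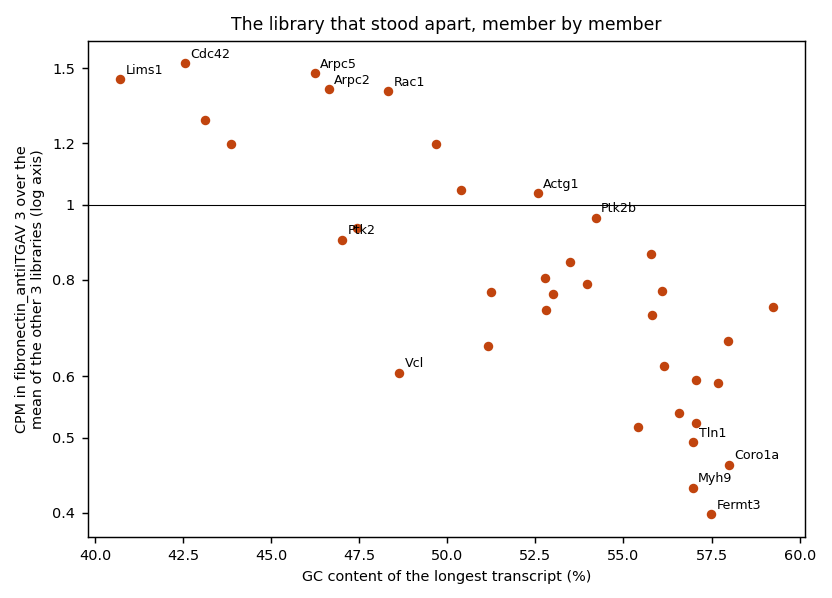
Ratio of each gene's CPM in fibronectin_antiITGAV 3 to the mean of the other 3 libraries of its group (log axis) against the GC content of its longest transcript in percent, 1 point per gene with a mean of at least 1 FPKM. GC-rich genes such as Fermt3 (0.398) lie low and GC-poor ones such as Cdc42 (1.52) lie high.

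With the antibody that neutralizes ITGAV none of the 40 genes passed edgeR's test: 0 passed on uncoated dishes, 0 on fibronectin and 0 on average, against 0.0129%, 0.0129% and 0.0711% of all genes tested. At an unadjusted p under 0.05 there were 1 gene on uncoated dishes (Bcar1), 2 on fibronectin (Myl9 and Cdc42) and 2 on average, and DESeq2 called 0 in each, against 0.181%, 0.123% and 0.33% of all genes, with no adjusted p for Myl9. On uncoated dishes 34 of the 40 changes were positive, with a median of 0.09 against 0.01 over all genes tested, and with the GC offset 29 were positive, with a median of 0.03. On fibronectin 26 were negative, with a median of -0.13 against 0.00 over all genes, which was -0.03 without fibronectin_antiITGAV 3 and 0.01 with the GC offset. Both antibody comparisons share no library with each other, but each shares its groups with the coating comparisons.

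For the 36 genes with a mean of at least 1 FPKM the sizes can be bounded. On uncoated dishes their log2 changes with anti-ITGAV ran from -0.29 (Lims1) to 0.20 (Actg1), and the 95% intervals reached from -0.77 (Lims1) to 0.54 (Gsn). On fibronectin they ran from -0.29 (Myh9) to 0.31 (Lims1), with intervals from -0.68 (Myh9) to 0.79 (Lims1). Without fibronectin_antiITGAV 3 the second range narrowed to -0.13 (Parvg) to 0.22 (Vcl), while the intervals still reached from -0.40 to 0.71 (both Lims1). Ptk2, which rose with the coating, had -0.08 ± 0.11 (adjusted p = 0.988) with the antibody on uncoated dishes and 0.15 ± 0.11 (adjusted p = 0.721) on fibronectin, and Tns1 had 0.09 ± 0.14 (adjusted p = 0.988) and -0.20 ± 0.14 (adjusted p = 0.721). Libraries did not overlap in 1 gene on uncoated dishes (Bcar1, higher, at 1 to 29 counts; 2.24% of all genes) and in 1 on fibronectin (Myl9, lower; 1.37% of all genes).

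**Figure D5:**
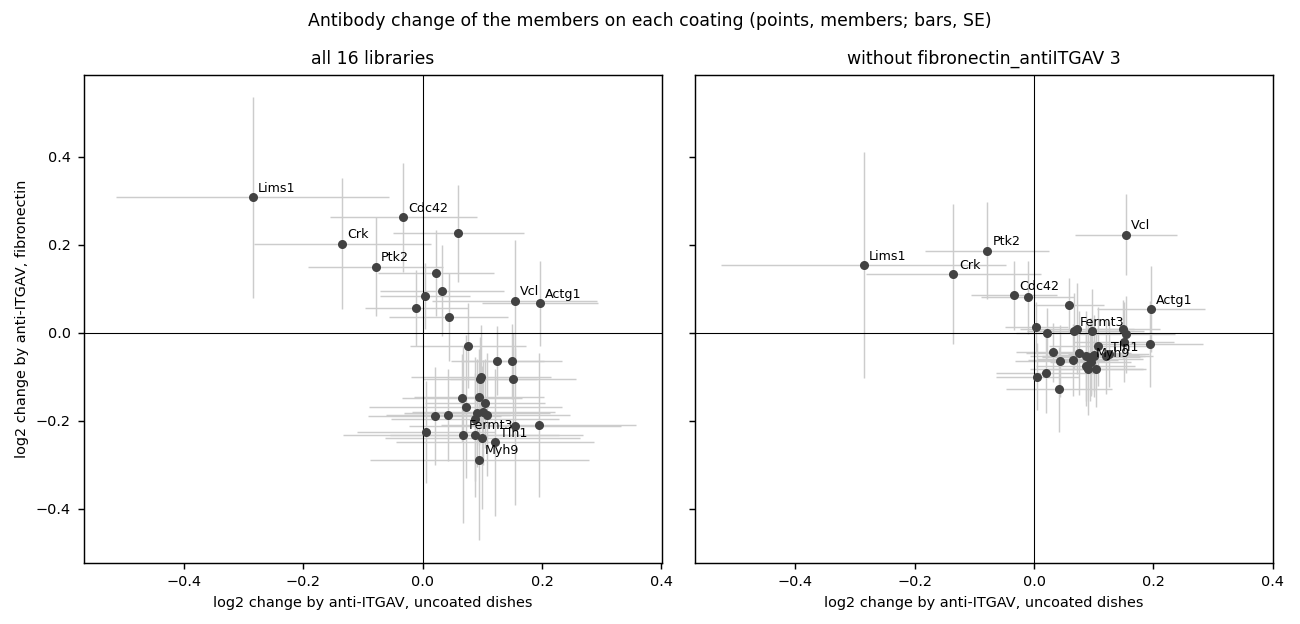
Log2 change with anti-ITGAV on uncoated dishes (x axis) against fibronectin (y axis), with SE bars, 1 point per gene with a mean of at least 1 FPKM, from all libraries (left) and without fibronectin_antiITGAV 3 (right). The spread along the y axis narrows on the right, where it spans -0.13 to 0.22, and no gene passed on either axis.

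The difference between coating effects under the 2 antibodies was tested as an interaction. By edgeR 0 of the 40 genes passed (0.0% of all genes tested) and by DESeq2 0 (0.00646% of all genes), with Myl9 the 1 gene at an unadjusted p under 0.05, so the different genes called under IgG and under anti-ITGAV are not shown to differ in their response. For Ptk2 the interaction was 0.23 ± 0.16 (adjusted p = 0.646), with a 95% interval of -0.11 to 0.57. For Flna it was -0.26 ± 0.14 (adjusted p = 0.646) (-0.56 to 0.04) and for Tns1 -0.28 ± 0.20 (adjusted p = 0.646) (-0.70 to 0.14). The median over the 40 genes was -0.22 with all libraries, -0.14 without fibronectin_antiITGAV 3 and -0.04 with the GC offset.

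Beyond the 42, a further 182 symbols of the same machinery in 10 lists gave 170 tested genes. On average over both antibodies 21 rose on fibronectin and 8 fell, where 6.58% of all genes tested rose and 5.26% fell, so the share that fell was near that of all genes. DESeq2 called 37, against 15.4% of all genes. For the antibody and the interaction 0 of the 170 passed by edgeR and by DESeq2, with 5 at an unadjusted p under 0.05 on uncoated dishes, 4 on fibronectin and 7 for the interaction. The formins and other filament nucleators had 3 of 10 higher, against 6.58% of all genes, 0 lower and a median of 0.21: Fmnl3 rose by 0.62 ± 0.09 (adjusted p = 0.000151), Spire1 by 0.42 ± 0.07 (adjusted p = 0.000427) and Fmnl2 by 0.43 ± 0.12 (adjusted p = 0.0306). Without fibronectin_antiITGAV 3, 7 of the 10 passed, all higher, against 8.91% of all genes, and with the GC offset 7 did, against 11.7%. Of 20 genes that bundle filaments or tie them to the membrane 5 rose and 2 fell (median 0.15; 6.58% and 5.26% of all genes), led by Ezr, the membrane linker ezrin, which rose by 0.62 ± 0.07 (adjusted p = 3.25e-05), with Tpm4, a tropomyosin, at 0.35 ± 0.08 (adjusted p = 0.00467), Aif1, an actin bundler of macrophages, at -0.36 ± 0.07 (adjusted p = 0.00326) and Marcks at -0.32 ± 0.07 (adjusted p = 0.00458). Of 32 further adhesion adaptors 6 rose and 3 fell (median 0.05; the same 6.58% and 5.26%), among them Parvb, parvin-β, with 0.35 ± 0.07 (adjusted p = 0.00277), the p130Cas relative Nedd9 with 0.39 ± 0.08 (adjusted p = 0.00477) and Sorbs3, the vinculin partner vinexin, with -0.79 ± 0.11 (adjusted p = 0.000195).

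The remaining lists held fewer calls, to be read against the same 6.58% higher and 5.26% lower of all genes. Of 19 other Arp2/3, WASP and WAVE genes 2 rose (median 0.00), both of them Rac-binding WAVE subunits, Cyfip2 with 0.33 ± 0.06 (adjusted p = 0.001) and Cyfip1 with 0.25 ± 0.05 (adjusted p = 0.00278). Actin turnover had 2 of 23 higher and 1 lower (median 0.01), with Cap1, which recycles actin monomers, at 0.32 ± 0.07 (adjusted p = 0.00301) and Gmfg, which takes branches apart, at -0.38 ± 0.08 (adjusted p = 0.00332). Of 13 genes of Src family and adhesion signalling 1 rose (Fyn) and 1 fell (Syk). Podosome genes had 1 of 8 higher (Cd44), and the 9 myosin II genes had 0 by edgeR, with 0 at an unadjusted p under 0.05 and 0 by DESeq2. The 9 other targets of SRF and YAP had 0 by edgeR as well, with 2 at an unadjusted p under 0.05 and 1 by DESeq2, and by edgeR 1 was higher without fibronectin_antiITGAV 3 and 2 were with the GC offset.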

How the data were processed

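The authors deposited whole-number counts per gene and FPKM for the same 54532 genes in 16 polyA-selected, paired-end libraries. Per the submitters' processing notes the builds were GRCm38.p6 and mm10 and the tools featureCounts, HISAT2 and StringTie; roles and options are not given in the sources used. From the deposited counts, genes were tested with edgeR 4.0.16 in R 4.3.3: filterByExpr (minimum count 10), TMM factors, 1 mean per group over all 16 libraries, robust quasi-likelihood tests and Benjamini-Hochberg adjustment over 15469 genes at 0.05. CPM are TMM-scaled, 95% intervals use the residual and prior degrees of freedom, and genes are ranked by level only with the deposited FPKM. Other settings were DESeq2 1.42.0, limma 3.58.1 on log2(FPKM + 1), other scaling and filters, the 8 libraries of a comparison alone, a replicate block, leaving out each library, and a GC offset (lowess, span 0.3, of log2 CPM on the GC content of the longest GENCODE M21 transcript). The last combined with leaving out fibronectin_antiITGAV 3 was added after the data were seen. Groups follow the labelled dish coating and treatment, and within a group pairs of libraries differed by more than counting noise (chi-square over its degrees of freedom 5.11 to 182). The analysis was tested on simulated counts, which held no GC trend and no library that stood apart, so that test does not cover either. The genes, their roles and the other lists were chosen with earlier results of these data known. Given in full are genes called in a comparison, 12 core genes, and the gene of each role with the largest change under IgG, plus up to 4 called genes per further list. Promoters are from RefSeq (GRCm38.p6), and coordinates of all 42 genes equalled GENCODE M21. No protein comparison was made. One further list is not reported here.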

Additional observations from a re-analysis of the deposited data

Results flagged for a closer look

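Of 160 sets of 4 libraries (40 genes in 4 groups), 22 held 1 library far from the other 3 by Dixon's test at the 95% level, which chance alone flags in about 1 of 20 groups. The genes of a library are not independent, and 16 of the 22 fell in fibronectin_antiITGAV 3 and 6 in uncoated_IgG 4, while uncoated_antiITGAV and fibronectin_IgG had 0.

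In fibronectin_antiITGAV 3, Tln1 stood at 822 CPM (1576 to 1717 in the other 3 libraries), Fermt3 at 165 (404 to 424), Pxn at 118 (197 to 205), Actn4 at 259 (482 to 512), Vasp at 65.4 (94.9 to 101), Actb at 3950 (5797 to 6132), Myh9 at 458 (1032 to 1085), Cfl1 at 1409 (1793 to 1868), Coro1a at 139 (294 to 311), Gsn at 381 (720.02 to 740.04) and Capg at 609 CPM (1015 to 1035). Higher than the others there were Arpc2 at 1320.2 CPM (901 to 969.7), Arpc5 at 949.6 (622 to 657), Rac1 at 629 (448 to 450.4), Rhoa at 670.3 (507 to 529.7) and Cdc42 at 1664 CPM (1076 to 1107). This library also had the highest mitochondrial share, 3.67% of counts. The part of RNA quality or of GC content in these values was not tested beyond the offset given in the report.

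In uncoated_IgG 4, all 6 values were higher than in the other 3 libraries. Tln1 stood at 1551 CPM (1280 to 1325), Actn4 at 487 (400.3 to 409), Actb at 5382 (4655 to 4766), Was at 135 (118 to 121), Pfn1 at 929.8 (806 to 827) and Capg at 940.2 CPM (822 to 837). The deviations of this library followed transcript GC content with a Spearman correlation of 0.40, against -0.14, -0.20 and -0.30 in the other 3. The 6 genes had 51.1% (Actb) to 59.2% GC (Pfn1), against a median of 49.2% for all genes tested. The part of GC content in these 6 values was not tested.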

How the results depend on the processing

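Counts of the 40 members called moved with the settings, and no log2 change of a called gene changed sign. The share of all genes called moved too. Under IgG it was 3.79%, 6.85% with DESeq2, 11.1% with the GC offset and 14.8% without fibronectin_antiITGAV 3 as well. Under anti-ITGAV it was 5.66%, and 12.6% with the GC offset, with or without that library. Averaged, it was 11.8%, 21.9% with the GC offset and 23.4% with both changes. No share is given for the 8 libraries alone, the replicate block or most left-out libraries, so no result about the members is drawn there. Fibronectin under IgG gave 3 members with all libraries, 5 with DESeq2, 6 with the 8 libraries alone, 13 with the GC offset, with or without the replicate block, and 17 with the GC offset and fibronectin_antiITGAV 3 left out; leaving out 1 library gave 1 (without uncoated_IgG 1, 2 or 3) to 13 members (without fibronectin_antiITGAV 3). Under anti-ITGAV the 3 members became 11 with the GC offset, with or without the replicate block, 17 with both changes, and 2 to 6 with 1 library left out. The averaged 6 became 18 with the GC offset, 17 with the block added, 21 with both changes, and 4 to 15 with 1 library left out. Antibody and interaction counts were 0 in these settings. The cause of these moves was not tested. The replicate block alone gave 2, 3 and 5 members. No pairing by replicate number was seen. Same-numbered libraries of different groups had correlations of -0.30 to 0.28 in 24 pairs, 4 of them over 0.1. Of the 16 libraries, 2 correlated best with their own number. These correlations were not adjusted for the GC trend of each library, so whether a number marks a shared mouse or culture is not settled. The low counts of Myl9, Bcar1, Ilk and Parva limit what can be said of them.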
